A study of Chlorocebus sabaeus with 3 samples.

Results

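Transcripts of glycolysis, the pentose phosphate pathway and glucose transport were read in 3 tissues of the vervet monkey eye, the limbus, the cornea and the conjunctiva, on human expression arrays. The limbus is the rim between the transparent cornea and the conjunctiva, the mucous membrane over the white of the eye. A list of 40 genes was drawn up by function, with earlier results of these data known, so the counts below describe a list not chosen blind. Each gene was read from array probe sets that are annotated to that gene alone. Such a probe set was found for 38 of the 40 genes, out of 19775 genes named in this way on the array. SLC16A1 and SLC16A3, both monocarboxylate transporters, were not analysed here. The 3 groups were dissected pieces of vervet eye (Chlorocebus sabaeus), the labels name no allele, treatment, sex or age, and there was 1 array for each tissue. Per the study, the tissues came from the same eye, and each piece held the epithelium with part of the stroma beneath it, or with Tenon's tissue in conjunctiva. With 1 array in each group no difference could be set against a replicate error, so ratios are given without a p-value and describe these arrays only. The corneal keratin KRT12 was at 8068 in cornea, 2633 in limbus and 54.3 in conjunctiva, and the goblet cell mucin MUC5AC was at 102, 127 and 1618 in the same order. Each marker was thus highest in the tissue it defines.

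Glycolysis splits glucose into pyruvate in the cytosol and yields ATP without oxygen. Pyruvate is then either reduced to lactate, which leaves the cell through monocarboxylate transporters, or passed to the mitochondria through pyruvate dehydrogenase, which the PDK kinases switch off. The pentose phosphate pathway branches off at glucose 6-phosphate, makes NADPH for glutathione reduction and lipid synthesis in its oxidative part, and returns sugars to glycolysis in its non-oxidative part. The cornea has no blood vessels. Its epithelium takes glucose largely from the aqueous humor, stores glycogen, ferments much of its glucose to lactate, and is known for an active pentose phosphate pathway. The limbus and the conjunctiva are supplied by vessels.

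Ratios between the tissues were unevenly spread over the 38 genes. Values are RMA intensities, which are background-corrected and normalized signals on a linear scale, and the median over all 54675 probe sets of an array was 49.0 in limbus, 48.8 in cornea and 50.7 in conjunctiva. Where a gene had several probe sets, the brightest over the 3 tissues was used. The 38 genes ranged from 23.1 to 4008 in limbus, from 21.0 to 8887 in cornea and from 41.1 to 4613 in conjunctiva, and 34 of them reached 100 in at least 1 tissue. In 19 of the 38 the highest tissue was less than 1.5-fold over the lowest, compared with 62.3% of all genes. Among genes that reached 100 in some tissue, these were 19 of 34 (55.9%), close to the 54.2% of all such genes. The cornea was highest for 20 genes (52.6%, against 38.4% of all genes). The conjunctiva was highest for 12 (31.6%, against 36.7%) and the limbus for 6 (15.8%, against 24.9%). The arrays were also scaled to hybridization controls, labeled transcripts that are added before hybridization. The cornea was then highest for 6 genes (15.8%, against 4.76% of all genes) and the limbus for 27 (71.1%, against 85.2%). The order of these tissues is therefore given for the deposited values. The pieces hold different cells, and in such bulk samples fewer cells of a type and less RNA per cell cannot be told apart.

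**Figure D1:**
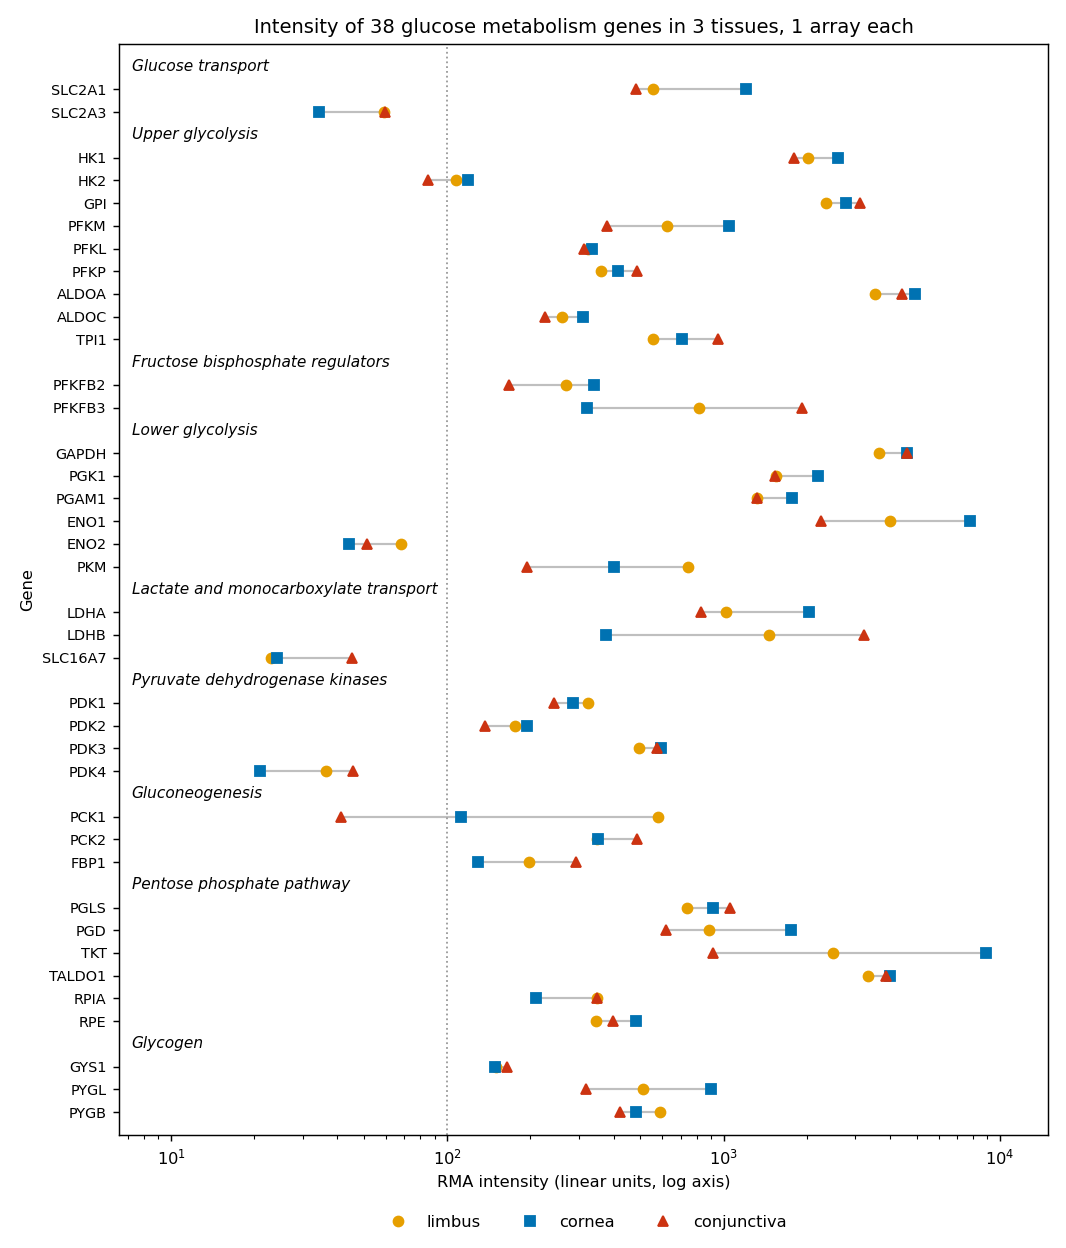
RMA intensity of each of the 38 genes (log axis, linear units), grouped by role, with circles for limbus, squares for cornea and triangles for conjunctiva (1 array per tissue, dotted line at 100). TKT, ENO1 and SLC2A1 have their highest value in cornea, LDHB and PFKFB3 in conjunctiva, and PCK1 and PKM in limbus.

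Between the cornea and the conjunctiva, 14 genes were at least 2-fold apart. The cornea was the higher tissue for SLC2A1, PFKM, PFKFB2, ENO1, PKM, LDHA, PCK1, PGD, TKT and PYGL, which are 10 of 38 genes (26.3%), while 5.31% of all genes were at least 2-fold higher in cornea. The conjunctiva was the higher tissue for PFKFB3, LDHB, PDK4 and FBP1, or 4 of 38 genes (10.5%), compared with 5.68% of all genes. Among genes that reached 100 in some tissue, the corneal share was 10 of 34 against 8.52%, and the conjunctival share was 3 of 34 (8.82%), close to the 8.24% of all such genes. The median log2 ratio of the cornea over the conjunctiva was 0.17 for the 38 genes and 0.01 for all genes. Scaled to hybridization controls, the split between the cornea and the conjunctiva became 8 to 6, while 3.43% of all genes were then higher in cornea and 8.46% in conjunctiva.

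Fewer of the genes separated the limbus from its neighbors. Against the cornea, the limbus was at least 2-fold higher for PFKFB3, LDHB and PCK1 (3 of 38, against 4.06% of all genes) and at least 2-fold lower for SLC2A1 and TKT (2 of 38, against 2.51%). Against the conjunctiva it was at least 2-fold higher for PKM, PCK1 and TKT (3 of 38, against 2.62%) and at least 2-fold lower for PFKFB3 and LDHB (2 of 38, against 2.31%). In 12 of the 14 genes that separated the cornea from the conjunctiva, the limbus lay between them. That share, 85.7%, was close to the 85.6% found over the 2174 genes of the array with such a difference. By the study's own rule, which asks for a 2-fold excess over both other tissues, SLC2A1 and TKT were counted for the cornea (1.89% of all genes), PFKFB3 and LDHB for the conjunctiva (1.68%) and PCK1 for the limbus (0.475%). Among genes that reached 100 these were 2 of 34 for the cornea (3.05% of all such genes), 2 of 34 for the conjunctiva (2.63%) and 1 of 34 for the limbus (0.573%). On the same footing, the background of the limbal comparisons was 5.97% for the limbus over the cornea, 3.84% for the cornea over the limbus, 3.94% for the limbus over the conjunctiva and 3.3% for the conjunctiva over the limbus, with the same genes of the list in each count.

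**Figure D2:**
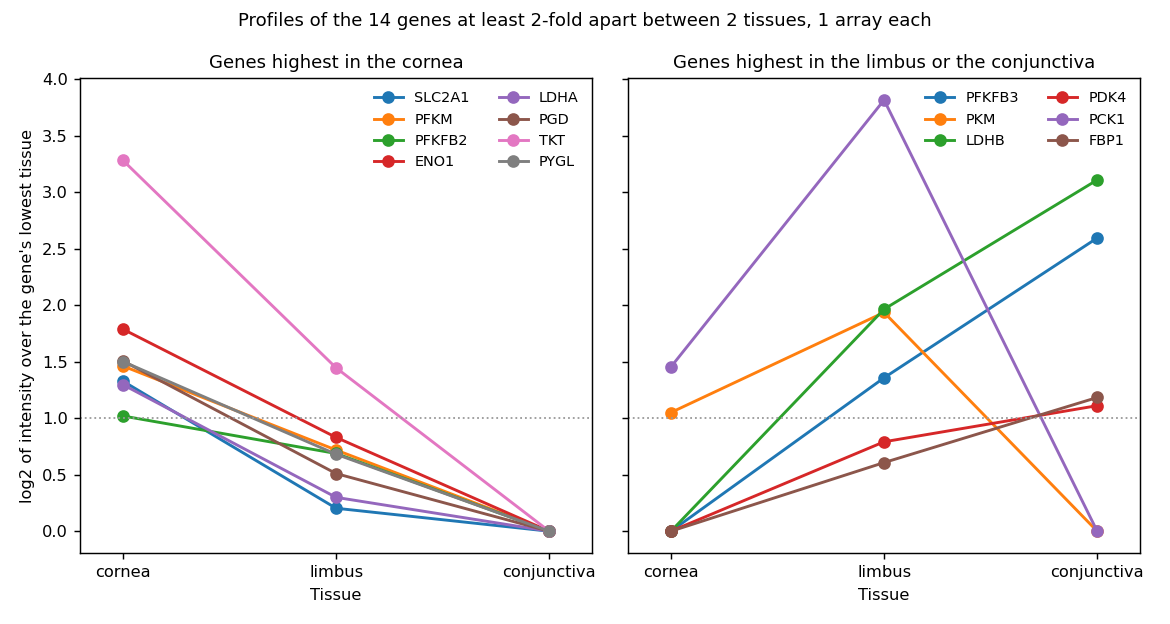
Log2 of the intensity over that of the gene's own lowest tissue, for the 14 genes at least 2-fold apart between any pair of tissues, with 1 array per tissue and the dotted line at 2-fold. The 8 genes in the left panel step down from the cornea through the limbus to the conjunctiva, and in the right panel LDHB, PFKFB3, FBP1 and PDK4 step up in that order while PCK1 and PKM peak in limbus.

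Glucose enters these cells through facilitative carriers of the SLC2A family. SLC2A1, or GLUT1, the basal carrier of epithelia and barrier tissues, was at 1209 in cornea, 555 in limbus and 482 in conjunctiva. The cornea thus stood 2.18-fold over the limbus and 2.51-fold over the conjunctiva, while the limbus and the conjunctiva were within 1.15-fold of each other. SLC2A3, or GLUT3, the high-affinity carrier of neurons, was low in all tissues, with 58.9 in limbus, 34.3 in cornea and 59.6 in conjunctiva.

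In the first phase of glycolysis, where glucose is phosphorylated and split, PFKM was the 1 enzyme of 9 that was 2-fold apart between any tissues. PFKM, the muscle-type subunit of phosphofructokinase, the committing step of glycolysis, was at 1044 in cornea, 624 in limbus and 379 in conjunctiva, a 2.75-fold span. The other subunits did not follow it. PFKL, the liver type, was at 323 in limbus, 334 in cornea and 312 in conjunctiva. PFKP, the platelet type, was at 360.5, 416 and 488 in the same order and was highest in conjunctiva. Within an array, where any scaling of the array cancels, the value of PFKM relative to PFKP was 3.23-fold higher in cornea than in conjunctiva.

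Hexokinases trap glucose in the cell. HK1, the form of most tissues, was at 2014 in limbus, 2585 in cornea and 1792 in conjunctiva, and the inducible HK2 was at 108, 119 and 85.1. Both were highest in cornea, by less than 1.5-fold over the next tissue, and HK1 was 1.34-fold higher in limbus than in cornea when scaled to hybridization controls. GPI, which converts glucose 6-phosphate to fructose 6-phosphate, was at 2345, 2781 and 3113 in limbus, cornea and conjunctiva. The aldolases, which cleave the 6-carbon sugar, spanned 1.39-fold for ALDOA (3547, 4927 and 4443) and 1.37-fold for ALDOC (261, 309 and 226). For TPI1, triosephosphate isomerase, the 2 probe sets above 100 disagreed. The brighter was at 554 in limbus, 708 in cornea and 956 in conjunctiva, and the other at 365, 356 and 289, so no order of the tissues is read for this gene.

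The bifunctional PFKFB enzymes set the level of a fructose bisphosphate that activates phosphofructokinase. The 2 forms in the list were opposite in order on their brightest probe sets. PFKFB1 and PFKFB4, measured outside the list, spanned only 1.25-fold and 1.27-fold over the tissues. PFKFB3, the inducible form with the strongest kinase activity, was at 1927 in conjunctiva, 818 in limbus and 319 in cornea. The conjunctiva was 2.36-fold over the limbus and 6.04-fold over the cornea, and the limbus was 2.56-fold over the cornea. PFKFB2, the form known from heart, was at 168 in conjunctiva, 270.1 in limbus and 340.0 in cornea. Its second probe set above 100 had 117 in conjunctiva, 105 in limbus and 125 in cornea, so the 2.03-fold excess of the cornea rested on 1 probe set, and PFKFB3 has a single probe set here.

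Of the 6 enzymes from glyceraldehyde phosphate to pyruvate, 4 were highest in cornea and 2 in limbus, and of the 4, only ENO1 stayed highest in cornea when scaled to hybridization controls. ENO1, the ubiquitous enolase, was at 7783 in cornea, 4008 in limbus and 2255 in conjunctiva. The cornea was 3.45-fold over the conjunctiva and 1.94-fold over the limbus, and the 2 other ENO1 probe sets above 100 were also highest in cornea, by 1.73-fold and 2.29-fold over the conjunctiva. PGK1, which makes the first ATP of the pathway, was at 2201 in cornea, 1551 in limbus and 1530.0 in conjunctiva. On its other 3 probe sets above 100 the cornea was 2.02, 1.80 and 2.51-fold over the conjunctiva. PGAM1, phosphoglycerate mutase, was at 1775, 1325 and 1317, again highest in cornea by 1.34-fold over the limbus. The neuronal enolase ENO2 was low throughout, at 67.8 in limbus, 44.2 in cornea and 51.3 in conjunctiva.

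PKM, pyruvate kinase, which makes pyruvate and the last ATP of glycolysis, did not follow ENO1 just upstream of it. It was at 744 in limbus, 403 in cornea and 195 in conjunctiva, so the limbus was 1.85-fold over the cornea and 3.83-fold over the conjunctiva. Within an array, PKM relative to ENO1 was 3.59-fold higher in limbus than in cornea. The other PKM probe set was at 86.3 in limbus and 69.5 in both other tissues, below 100, and its order for the limbus was the same. The spliced forms of this gene were not examined.

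GAPDH, which oxidizes glyceraldehyde phosphate, also served as the reference gene of the study's quantitative PCR, so its own level bears on any value scaled to it. It was at 3668 in limbus, 4621 in cornea and 4613 in conjunctiva. The ratio of the cornea over the conjunctiva was 1.00 on this probe set, and ran from 0.949 to 1.44 over the 6 GAPDH probe sets. The cornea was 1.26-fold over the limbus, or 0.735-fold when scaled to hybridization controls. On the 6 GAPDH probe sets, the ratio of the cornea over the limbus ran from 0.909 to 1.33. The lowest ratio came from the control probe set at the 5′ end of the transcript, at 1189 in limbus, 1081 in cornea and 1049 in conjunctiva. The highest came from the control probe set at the 3′ end, at 3713, 4949.7 and 4014. The 3′ to 5′ ratio of GAPDH was 3.12 in limbus, 4.58 in cornea and 3.83 in conjunctiva, so the amplified RNA of the 3 tissues did not cover this transcript in the same way, and the part of that in other ratios was not tested.

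The lactate dehydrogenase subunits were reciprocal across the tissues. LDHA, the subunit that favors the reduction of pyruvate to lactate, was at 2036 in cornea, 1020.5 in limbus and 829 in conjunctiva. LDHB, the subunit of oxidative tissues such as heart, was at 376 in cornea, 1465 in limbus and 3237 in conjunctiva. LDHA was 2.46-fold higher in cornea than in conjunctiva, and LDHB was 8.62-fold higher in conjunctiva than in cornea, with the limbus between them for each subunit. Within an array, LDHA relative to LDHB was 21.2-fold higher in cornea than in conjunctiva and 7.79-fold higher than in limbus, and the limbus was 2.72-fold over the conjunctiva. The other LDHB probe set gave 372, 1264 and 2780.0 in cornea, limbus and conjunctiva, or 7.47-fold from the last to the first. LDHA has a single probe set here and, at 1.996-fold over the limbus, was just short of 2-fold. Both LDHB probe sets are of the class that may also bind related transcripts.

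The monocarboxylate transporter SLC16A7, or MCT2, which carries lactate and pyruvate with high affinity, was at 23.1 in limbus, 24.1 in cornea and 45.1 in conjunctiva, all below the median of the array. The pyruvate dehydrogenase kinases, which hold pyruvate back from the mitochondria, were less than 1.5-fold apart for PDK1, PDK2 and PDK3. PDK1, a target of hypoxia signaling, was at 324 in limbus, 285 in cornea and 243 in conjunctiva. PDK2, the most widespread form, was at 176, 195 and 137, and PDK3 at 495, 593 and 573, in the same order. The other probe sets above 100 of PDK2 and PDK3 were highest in limbus, so the order of the tissues depended on the probe set. PDK4, the form induced by fasting and by fatty acids, was low, with 36.4 in limbus, 21.0 in cornea and 45.4 in conjunctiva.

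In gluconeogenesis, PCK1 was highest in limbus. PCK1, the cytosolic carboxykinase that turns oxaloacetate into phosphoenolpyruvate and is known from liver, kidney and fat, was at 578 in limbus, 113 in cornea and 41.1 in conjunctiva. The limbus was 5.14-fold over the cornea, and the conjunctiva was below the median of its array. The ratio of the limbus over the conjunctiva was 14.1 as deposited and 8.35 with a pseudocount of 32, and that of the cornea over the conjunctiva was 2.74 and 1.98, so these ratios depend on how a dim value is treated. PCK2, the mitochondrial form, was at 347 in limbus, 350.3 in cornea and 486 in conjunctiva and did not share this order. PCK1 relative to PCK2 was 5.18-fold higher in limbus than in cornea. FBP1, which reverses the phosphofructokinase step, was at 293 in conjunctiva, 197 in limbus and 129 in cornea, a 2.27-fold span. Of 5 adipocyte markers, FABP4 alone reached 100, at 105 in limbus, and ADIPOQ was at 13.3, 12.1 and 17.4 in limbus, cornea and conjunctiva. Melanocyte markers were highest in limbus in 4 of 4 genes, with a summed level of 1476 in limbus, 351 in cornea and 651 in conjunctiva. Of 6 skeletal muscle markers, 4 were highest in conjunctiva, but only 2 of the 6 reached 100 in some tissue. These were TNNT1, at 270 in conjunctiva, 168 in limbus and 110 in cornea, and MYBPC1. MYBPC1 alone was highest in limbus, at 831 against 23.0 in cornea and 78.4 in conjunctiva. The part of these cells in the PCK1 and PKM values was not tested.

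The pentose phosphate pathway held the steepest corneal gradient of the 38 genes. TKT, transketolase, the non-oxidative enzyme that is also among the most plentiful proteins of the corneal epithelium in the mouse, was at 8887 in cornea, 2491 in limbus and 915 in conjunctiva. The cornea was 3.57-fold over the limbus and 9.72-fold over the conjunctiva, and the limbus was 2.72-fold over the conjunctiva. The second TKT probe set had 2748, 1194 and 307, with the cornea 8.96-fold over the conjunctiva. One more probe set, at 44.2, 40.4 and 46.0, was near the median of the array and showed no difference of that size. TALDO1, transaldolase, the partner enzyme of transketolase, was at 3998 in cornea, 3321 in limbus and 3886 in conjunctiva, so TKT relative to TALDO1 was 9.44-fold higher in cornea than in conjunctiva.

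PGD, the second NADPH-producing enzyme of the oxidative part, was the other pentose phosphate gene at least 2-fold higher in cornea than in conjunctiva. It was at 1760.3 in cornea, 882 in limbus and 620 in conjunctiva. The cornea was 2.84-fold over the conjunctiva and 1.995-fold over the limbus. The other PGD probe sets were all below 100, and on 1 of them, at 61.2 in cornea and 79.8 in conjunctiva, the order was turned. PGLS, the lactonase upstream of PGD, was at 917, 740.3 and 1054 in cornea, limbus and conjunctiva on its brightest probe set, and 1 other probe set above 100 was highest in cornea. The isomerase RPIA was lowest in cornea, with 209.7 against 348 in both other tissues. RPE, the epimerase that works beside it, was at 484 in cornea, 346 in limbus and 398 in conjunctiva.

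Glycogen is laid down by GYS1 and broken down by the phosphorylases. GYS1, glycogen synthase, was at 151 in limbus, 149 in cornea and 165 in conjunctiva. PYGL, the liver-type phosphorylase, was at 903 in cornea, 511 in limbus and 319 in conjunctiva, so the cornea was 2.83-fold over the conjunctiva. PYGB, the brain type, was at 587 in limbus, 481 in cornea and 422 in conjunctiva. The synthase was thus within 1.10-fold among the tissues, and the phosphorylases had different tissues at the top.

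Of 93 further genes of sugar metabolism, 77 were measured, and 12 of these were at least 2-fold apart between the cornea and the conjunctiva, 11 of them with the higher value in cornea (against 5.31% of all genes) and 1 in conjunctiva (against 5.68%). Their median log2 ratio of the cornea over the conjunctiva was 0.15, close to that of the 38 genes. By the study's rule 5 were counted for the cornea (against 1.89% of all genes), none for the limbus and 1 for the conjunctiva, the monocarboxylate transporter family member SLC16A4, at 20.5 in limbus, 17.3 in cornea and 53.3 in conjunctiva (against 1.68%). GYG1, glycogenin, which primes a glycogen particle, was at 1989.7 in cornea, 603 in limbus and 563 in conjunctiva. RBKS, ribokinase, which feeds ribose to the pentose phosphate pathway, was at 681, 252 and 214, and ENO3, the muscle enolase, was at 367, 178 and 159. The carriers SLC16A10, which transports aromatic amino acids, and SLC16A5 completed them, with 323 and 456 in cornea, 112 and 214 in limbus, and 63.8 and 211 in conjunctiva. PHKB, a subunit of the kinase that activates glycogen phosphorylase, was at 734 in cornea, 368 in limbus and 225 in conjunctiva, a 3.26-fold span.

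Genes of the mitochondrial steps were taken from the same list. Of 8 genes for the entry of pyruvate into mitochondria, none was 2-fold apart between any pair of tissues. Of 18 genes of the TCA cycle, 1 was 2-fold apart between the cornea and the conjunctiva, beside 5.31% of all genes higher in cornea and 5.68% higher in conjunctiva, so with lists this short these counts are close to the shares over all genes. That gene was SUCLA2, a subunit of succinate-CoA ligase, with 1447 in cornea, 937 in limbus and 399 in conjunctiva. The median log2 ratio of the cornea over the conjunctiva was 0.14 for the pyruvate entry genes and -0.05 for the TCA cycle genes. It was 0.16 for the 6 pentose phosphate genes and 0.15 for the 9 enzymes of the first phase of glycolysis. For the 6 enzymes from glyceraldehyde phosphate to pyruvate it was 0.48, and for these 15 glycolytic enzymes together 0.43. GBE1, the glycogen branching enzyme, was highest in limbus, at 1095 against 666 in cornea and 429 in conjunctiva.

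With no second array of any tissue, these values could be checked only against further probe sets. The 38 genes had 91 named probe sets. Of 53 that were not used for the main values, 23 reached 100, in 13 genes. The highest tissue was that of the brightest probe set for 15 of the 23 (65.2%), compared with 51.7% over all genes. The lowest tissue was the same for 11 of the 23 (47.8%), close to the 49.2% over all genes. For genes with a 2-fold span, 5 such probe sets existed, in TKT, LDHB, ENO1 and PFKFB2. All 5 had the same highest tissue and 4 the same lowest tissue, and the share over all genes with a 2-fold span was not computed. SLC2A1, PFKM, PFKFB3, PKM, LDHA, PCK1, FBP1, PGD and PYGL had no second probe set above 100, so their profiles rest on 1 probe set each.

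**Figure D3:**
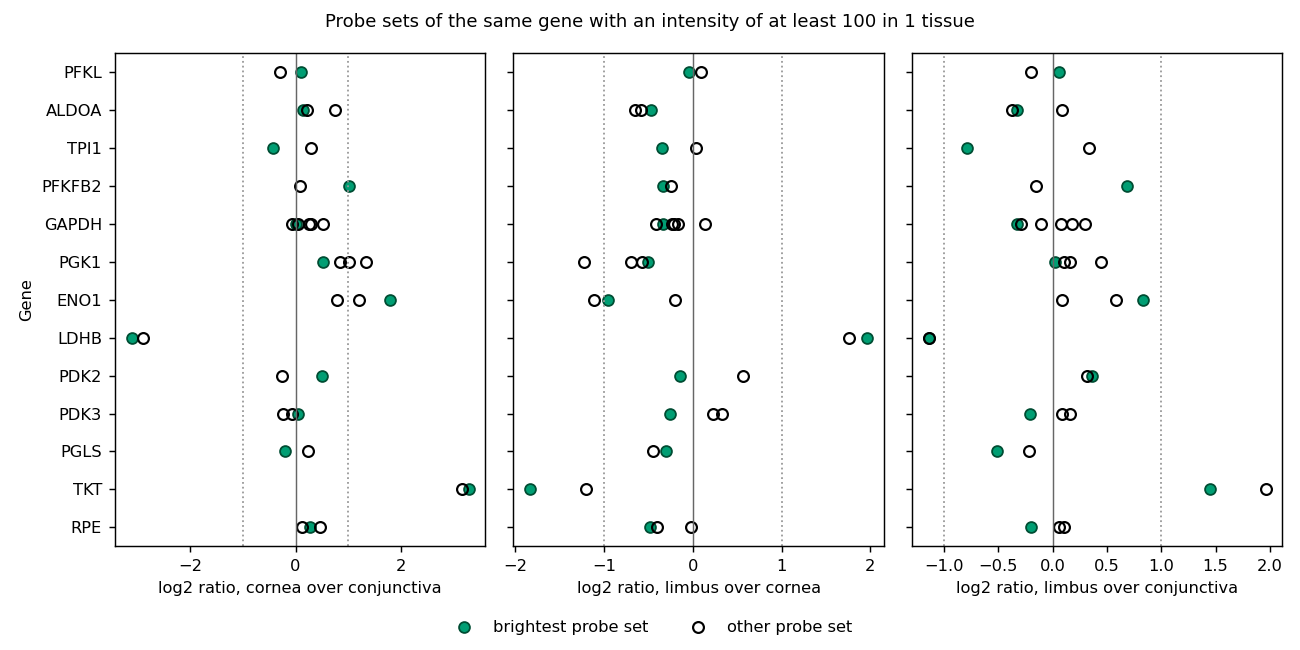
Log2 ratios between tissues on every probe set that reached 100 in 1 tissue, for the 13 genes with more than 1 such probe set (filled, the brightest; open, the others; dotted lines at 2-fold). The probe sets of LDHB and of TKT lie close together on the cornea over conjunctiva axis. Those of TPI1, PFKL, GAPDH, PDK2, PDK3 and PGLS fall on both sides of 0 there.

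The ratios that involve the limbus depended on how the arrays were put on a common scale. The 18 hybridization control probe sets had a mean of 1836 in limbus, 3149 in cornea and 2687 in conjunctiva. Scaling the arrays to them moved the median log2 ratio of the limbus over the cornea for all genes from -0.05 to 0.73, and the limbus was then highest for 27 of the 38 genes and for 85.2% of all genes. The median of the 38 genes minus that of all genes was -0.20 in this comparison, a difference that no single factor per array can change, and -0.029 with the arrays quantile normalized together. In the scaling to hybridization controls, the cornea was highest for 6 of the 38 genes (15.8%, against 4.76% of all genes). Under this scaling TKT was still 2.08-fold higher in cornea than in limbus, while SLC2A1 was 1.27-fold higher, LDHA 1.16-fold and ENO1 1.13-fold. The excess of the conjunctiva over the limbus became 1.61-fold for PFKFB3 and 1.51-fold for LDHB. Under the deposited values and the 3 other scalings drawn, TKT, ENO1, PGD, SLC2A1, LDHA, PYGL and PFKM stayed more than 2-fold higher in cornea than in conjunctiva, and LDHB and PFKFB3 stayed more than 2-fold lower. Scaling to GAPDH could hardly move this comparison, because the GAPDH probe set used had a ratio of 1.00 between these tissues.

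**Figure D4:**
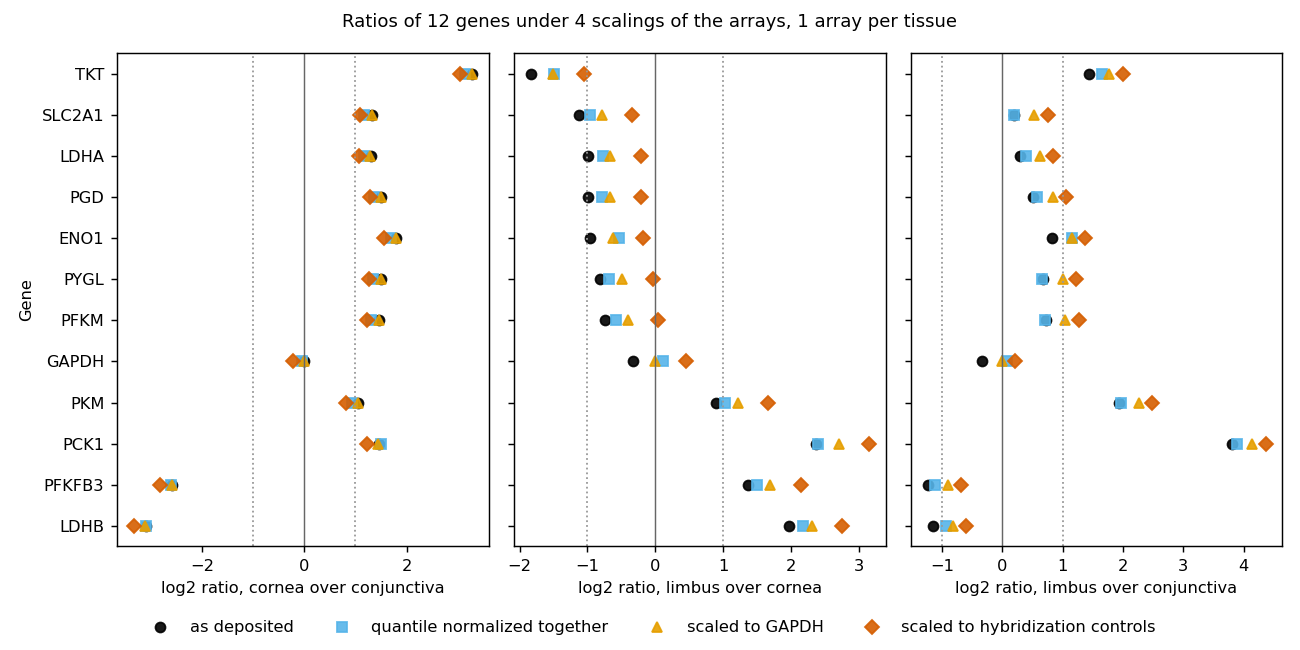
Log2 ratios between tissues of 12 genes under 4 scalings of the arrays (circles, as deposited; squares, quantile normalized together; triangles, scaled to GAPDH; diamonds, scaled to hybridization controls), with 1 array per tissue and dotted lines at 2-fold. The 12 genes keep their side of 0 for cornea over conjunctiva except GAPDH and are moved most for limbus over cornea, where SLC2A1 goes from 2.18-fold to 1.27-fold in favor of the cornea.

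Cell type markers differed among the tissues. Their levels were summed for description only, since a sum is led by its brightest genes and does not measure the amount of a cell type. Corneal epithelial markers had a summed level of 47899.7 in cornea, 22651 in limbus and 14729.6 in conjunctiva, and were highest in cornea in 6 of 7 genes. The exception, CLU, made up 8540 of the conjunctival sum. Markers of the corneal stroma summed to 46095, 20664 and 13122, with 6 of 7 highest in cornea, and TGFBI made up 21896 of the sum in cornea. The genes picked out above as stepping down from the cornea to the conjunctiva have the order of these sums by definition. Goblet and mucosal markers were highest in conjunctiva in 7 of 7 genes, with sums of 2493 in cornea, 3722 in limbus and 12954 in conjunctiva, and the sums for vessel endothelium were 379.6, 1253 and 1984. Smooth muscle and pericyte markers summed to 406, 1433 and 4072, and leukocyte markers to 335, 523 and 919. The conjunctiva was highest in 3 of 5 endothelial, 4 of 5 smooth muscle and pericyte and 5 of 5 leukocyte genes, and the limbus in the others. LDHB and PFKFB3 shared the order of these sums, though not that of every gene in the lists. Such an order is common, as the limbus lay between in 85.6% of all genes at least 2-fold apart between the cornea and the conjunctiva. No marker was listed at 0, and the part of cell composition in the ratios was not tested.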

How the data were processed

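The authors amplified total RNA of each tissue, hybridized it to Affymetrix human U133 plus 2.0 arrays, and computed RMA values (justRMA in R) for each array jointly with the same set of reference arrays. RMA is also named in the submitters' processing notes, with no version. As deposited, the values are linear intensities for 54675 probe sets and 3 arrays, with 0 missing values and 0 columns of other samples, and were used without further normalization. The number of arrays limits the precision, and there is no replicate, so no test was made.

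Gene names came from GEO's platform annotation, which is not recent: 41097 probe sets have 1 gene symbol, 1801 have several, and 11777 are not named here. Of the probe sets used for the 38 genes, 15 end in _at, 17 in _s_at and 6 in _x_at. The last 2 classes may bind related transcripts. Probes are human, so levels of different genes are not compared, and the sums over markers are descriptive only. For a gene with several probe sets, the one with the highest mean of log2 values was taken. Ratios of at least 2 were counted, with no pseudocount, beside the share of all 19775 genes that pass. The members, the groups and the lists were chosen with earlier results of these data known. All members are named, with values in full for those 2-fold apart. Of other pathway genes, those 2-fold higher in 1 tissue with at least 100 were to be named. PHKB, SUCLA2, GBE1, SLC16A4, PFKFB1 and PFKFB4, and the pairs of genes compared within an array, were chosen after their values were seen.

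The code of the selection was checked on simulated arrays with planted raised genes and small independent noise. That simulation held no shift of a whole array, so it does not show how the rule performs on these data. Alternatives varied the threshold, the pseudocount, a minimum level, the scaling, and the probe set. Python 3.11.15, numpy 2.4.6, pandas 2.3.3 and matplotlib 3.10.9 were used. No sequence is shown.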

Additional observations from a re-analysis of the deposited data

How the results depend on the processing

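With 1 array per tissue, no array could be left out. No paired analysis was possible because each group holds 1 array. Counts are given as moved when they differ by more than 1.5 times from the values as reported, and medians when they differ by more than 0.1 on the log2 scale. At a threshold of 1.5-fold, the counts were 2 for the limbus and 7 for the cornea, with 16 genes apart between limbus and cornea and 11 between limbus and conjunctiva. At 3-fold they were 1 for the cornea (TKT), 0 for the conjunctiva, and 4 genes apart between the cornea and the conjunctiva (ENO1, TKT, PFKFB3 and LDHB), 3 between limbus and cornea and 2 between limbus and conjunctiva. With the arrays quantile normalized together, the counts were 2 for the limbus (PKM and PCK1), 1 for the cornea (TKT) and 1 for the conjunctiva (PFKFB3), and the median log2 difference was -0.042 for limbus minus cornea and 0.14 for limbus minus conjunctiva. Scaled to the same median, LDHA and PGD joined SLC2A1 and TKT, which gave 4 for the cornea. Scaled to hybridization controls, the counts were 3 for the limbus (PKM, PCK1 and PYGB), 1 for the cornea (TKT) and 0 for the conjunctiva. There, 11 genes were apart between limbus and cornea and 9 between limbus and conjunctiva, and the medians were -0.060 for cornea minus conjunctiva, 0.53 for limbus minus cornea and 0.56 for limbus minus conjunctiva. These shifts follow from the scaling, which moves every gene of an array alike. Scaled to GAPDH, the counts were 2 for the limbus, 1 for the cornea and 0 for the conjunctiva, with 8 genes apart between the limbus and the cornea and medians of 0.088 for limbus minus cornea and 0.34 for limbus minus conjunctiva. With the median of each gene's probe sets, the medians were -0.14 for limbus minus cornea and 0.14 for limbus minus conjunctiva. With probe sets ending in _s_at or _x_at avoided where possible, the cornea had 0 genes, and 3 were apart between the limbus and the cornea. With the second brightest probe set, the cornea had 1 gene (TKT) and the median was 0.067 for cornea minus conjunctiva.

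A pseudocount of 32 and a minimum of 100 moved none of these counts or medians. The pseudocount brought 4 of the 24 ratios of at least 2-fold below 2-fold. Over these 24 ratios and 8 alternatives, 35 of 192 values were below 2-fold and 5 reversed, all on another probe set. For cornea minus conjunctiva, TKT was at -0.057 without _s_at and _x_at probe sets, PKM at -0.00069 on its second probe set, and PGD at -0.38 on its second probe set and by the median. For limbus minus conjunctiva, TKT was at -0.19 without those probe sets. The probe sets behind these reversals are below 100, and the cause was not tested.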
